A study of Mus musculus with 15 samples.

Results

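The genes described are Tent5c, Oplah, Gpr155, Tmem79, Hhatl and Rhpn2, 6 mouse genes named for their large increases with doxorubicin in B16.F10 cells. They are 6 of the 13172 genes listed in the count tables and of the 12721 genes listed for all 5 groups, which were tested. The members were named with the doxorubicin contrasts of these libraries in view, so their values in those contrasts are given as a description and carry no test.

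B16.F10 is a mouse melanoma line, and all groups were kept in 1% oxygen. Poly(A) RNA was sequenced in 15 libraries, 3 in each of 5 groups. Hif1a_siRNA_Dox cells, labelled as a Hif-1a knockdown, were transfected with lipoplexes carrying an siRNA against Hif1a at 25 nM and, after 24 h, given doxorubicin hydrochloride at 0.25 µM for a further 24 h. Dox cells, labelled wild type, received the drug at the same dose and for the same time, with no siRNA named. Hif1a_siRNA cells received the Hif1a siRNA at 25 nM and no drug. NC_siRNA cells, labelled wild type, received a negative control siRNA at 25 nM, and Control cells, labelled wild type, received nothing. The time between transfection and harvest is not given in the sources used here for the groups without drug, so time since transfection and the drug cannot be told apart where Hif1a_siRNA_Dox is set against Hif1a_siRNA. Dox has no transfected counterpart, so siRNA and lipoplex cannot be told apart where Hif1a_siRNA_Dox is set against Dox.

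Doxorubicin is an anthracycline that intercalates into DNA and traps topoisomerase II on it, which breaks DNA and disturbs chromatin and transcription. The protein made from Hif1a is the part of the HIF-1 transcription factor that low oxygen stabilises. The members belong to no common pathway. Tent5c encodes a cytoplasmic poly(A) polymerase that lengthens the tails of mRNAs for secreted and membrane proteins and is known as a tumour suppressor of plasma cells. Oplah encodes oxoprolinase, which returns oxoproline to glutamate in the gamma-glutamyl cycle of glutathione turnover. Gpr155 encodes a lysosomal membrane protein that binds cholesterol and acts upstream of mTORC1, and Tmem79 encodes a membrane protein of the epidermal barrier that is related to the MAPEG superfamily of glutathione-linked membrane enzymes. Hhatl encodes a relative of the Hedgehog acyltransferase Hhat that is known from heart and skeletal muscle, and Rhpn2 encodes a cytoplasmic scaffold protein.

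All members were higher with the drug, and the DNA upstream of the gene is shown for those that shared letters of a searched motif. The sequences are from RefSeq on GRCm38.p6, whose table holds a promoter for 5 of the 6 genes, Tent5c, Gpr155, Tmem79, Hhatl and Rhpn2. Its window covers 250 bases before and 50 after the start site that the table uses, and positions are counted from that site. The site is the first base of the RefSeq gene for Tent5c and Tmem79, but lies 41 bases inside the gene for Gpr155 and 57 bases inside it for Rhpn2. For Hhatl the table holds 2 start sites, of which the first, 1387 bases inside the gene, was used. Only bases before the RefSeq gene are printed, 5′ to 3′ on its strand, which are 250 for Tent5c and Tmem79, 209 for Gpr155 and 193 for Rhpn2. Capitals mark the GC box GGGCGG, searched on both strands, and the cyclic AMP response element half-site TGACG, searched on both strands. The stretches are chr3:100489193-100489442 on the minus strand for Tent5c, chr2:73386522-73386730 on the minus strand for Gpr155, chr3:88334434-88334683 on the minus strand for Tmem79 and chr7:35333987-35334179 on the plus strand for Rhpn2.
Tent5c: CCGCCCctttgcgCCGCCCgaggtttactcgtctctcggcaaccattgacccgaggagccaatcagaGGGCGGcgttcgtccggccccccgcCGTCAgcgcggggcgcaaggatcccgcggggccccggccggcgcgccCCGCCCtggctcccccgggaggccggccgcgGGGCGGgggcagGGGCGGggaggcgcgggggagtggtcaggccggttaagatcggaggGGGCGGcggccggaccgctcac
Gpr155: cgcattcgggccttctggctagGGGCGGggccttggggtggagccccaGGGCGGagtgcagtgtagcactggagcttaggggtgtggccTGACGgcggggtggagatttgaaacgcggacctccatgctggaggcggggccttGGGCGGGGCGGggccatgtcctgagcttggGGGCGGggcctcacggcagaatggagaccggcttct
Tmem79: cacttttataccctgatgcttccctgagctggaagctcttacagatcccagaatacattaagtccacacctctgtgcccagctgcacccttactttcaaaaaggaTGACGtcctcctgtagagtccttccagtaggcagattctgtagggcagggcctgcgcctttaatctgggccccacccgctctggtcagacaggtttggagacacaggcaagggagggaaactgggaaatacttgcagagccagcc
Rhpn2: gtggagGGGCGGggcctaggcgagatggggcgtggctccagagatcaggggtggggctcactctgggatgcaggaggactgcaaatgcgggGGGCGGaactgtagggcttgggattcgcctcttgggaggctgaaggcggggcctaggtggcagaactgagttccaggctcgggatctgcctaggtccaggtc

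The GC box was matched 7 times in the Tent5c window, 7 times in the Gpr155 window and 8 times in the Rhpn2 window. Of these, the Gpr155 matches at -25 and -7 and the Rhpn2 matches at -47, -12, -7, 2, 19 and 31 lie inside the RefSeq gene and are not printed. One base is shared by the overlapping matches at -107 and -102 in Gpr155 and at -12 and -7 in Rhpn2. No GC box was matched in the Tmem79 window or at either Hhatl start site. Across 27025 gene promoters of the same length, 35.9% held at least 1 GC box and 0.648% held 7 or more. The cutoff of 7 was taken from the Tent5c, Gpr155 and Rhpn2 windows themselves. These windows are richer in G and C than the median promoter, and the shares are not matched for that. The half-site TGACG was matched once each in Tent5c at -158, in Gpr155 at -161 and in Tmem79 at -145, against 21.0% of all promoters.

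Other motifs were searched on both strands over the same windows. The hypoxia response element core ACGTG was matched in 0 of the 5 windows (19.7% of all promoters), the E-box CACGTG, which contains that core, in 0 (7.24%), the M-box core CATGTG in 0 (14.1%), the AP-1 motif TGANTCA in 0 (7.93%) and the p53 half-site in 0 (8.37%). The window of the other Hhatl start site, the first base of the RefSeq gene, held none of the searched motifs either. CCAAT was matched once, in Tent5c at -192 (37.9% of all promoters), and TATAAA once, in Tmem79 at -246 (14.2%). The windows contained 78% G and C in Tent5c, 70.3% in Gpr155, 54% in Tmem79, 58% in Hhatl and 69.7% in Rhpn2, beside a median of 52.7% over all promoters. These matches describe letters in the windows and not bound sites.

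The libraries held 23825110 to 28734303 counted reads, and levels are given as CPM, counts per 1000000 reads of a library size scaled by TMM factors. Hif1a, the siRNA's target, averaged 13.1 ± 1.35 CPM in Hif1a_siRNA_Dox, 142 ± 8.91 in Dox, 17.2 ± 1.57 in Hif1a_siRNA, 274 ± 13.5 in NC_siRNA and 217 ± 13.2 in Control (SD, n = 3 each). It was thus lowest in the groups labelled as knockdown. It was also lower in Dox than in Control, at 137 to 153 against 205 to 231 CPM, though both are labelled wild type. All 8 melanocytic markers, Mitf, Sox10, Pmel, Tyr, Dct, Mlana, Tyrp1 and Slc45a2, were listed for every group. They summed to 29870 to 36750 CPM in Hif1a_siRNA_Dox and 40070 to 46690 in Dox, against 9149 to 9556 in Hif1a_siRNA, 8352 to 9026 in NC_siRNA and 13520 to 14650 in Control. Pmel, Dct, Mlana, Tyrp1 and Slc45a2 averaged higher in both drug groups than in each group without the drug. Sox10, a transcription factor gene of the lineage, averaged 29.9 CPM in Hif1a_siRNA_Dox and 28.5 in Dox, against 181 in Hif1a_siRNA, 212.5 in NC_siRNA and 199.9 in Control. Tyr was also lower, at 45.1 CPM in Hif1a_siRNA_Dox and 57.9 in Dox, against 150 in Hif1a_siRNA, 72.45 in NC_siRNA and 78.1 in Control. Mitf averaged 49.9 CPM in Hif1a_siRNA_Dox and 43.0 in Dox, against 81.3 in Hif1a_siRNA, 55.0 in NC_siRNA and 35.8 in Control. Mitochondrial transcripts took 3.9% to 5.07% of reads in Hif1a_siRNA_Dox and 3.37% to 4.07% in Dox, against 1.64% to 2.11% in Hif1a_siRNA, 1.79% to 2.06% in NC_siRNA and 1.38% to 1.47% in Control. The marker sums and this share moved with the drug, and their part in the members' values was not tested. The labels call the replicates biological but do not say whether each was a culture of its own, so the spread behind the p-values may be technical. In bulk RNA, fewer cells of a type and less RNA per cell cannot be told apart.

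All 6 members stood at 2.15 CPM or less in every library without the drug and at 15.6 CPM or more in every library with it. Over the members, single libraries spanned 26.7 to 162 CPM in Hif1a_siRNA_Dox and 15.6 to 162 CPM in Dox, against 0.0622 to 2.15 CPM in Hif1a_siRNA, 0.223 to 1.36 CPM in NC_siRNA and 0.132 to 1.13 CPM in Control. Dox did not overlap Control for 6 of 6 members, where edgeR's quasi-likelihood test called 83.8% of the 12721 tested genes at an adjusted p under 0.05, 43.9% higher and 39.8% lower. Hif1a_siRNA_Dox did not overlap Hif1a_siRNA for 6 of 6 members either, beside 84.2% of all genes called, 42.6% higher and 41.6% lower. The choice of members fixes both counts. The shares called are also a different measure, and the share of all genes whose groups do not overlap is not given here. Over the members the median log2 fold change was 6.54 in Dox against Control and 6.50 in Hif1a_siRNA_Dox against Hif1a_siRNA, beside medians of 0.10 and 0.04 over all genes tested.

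**Figure D1:**
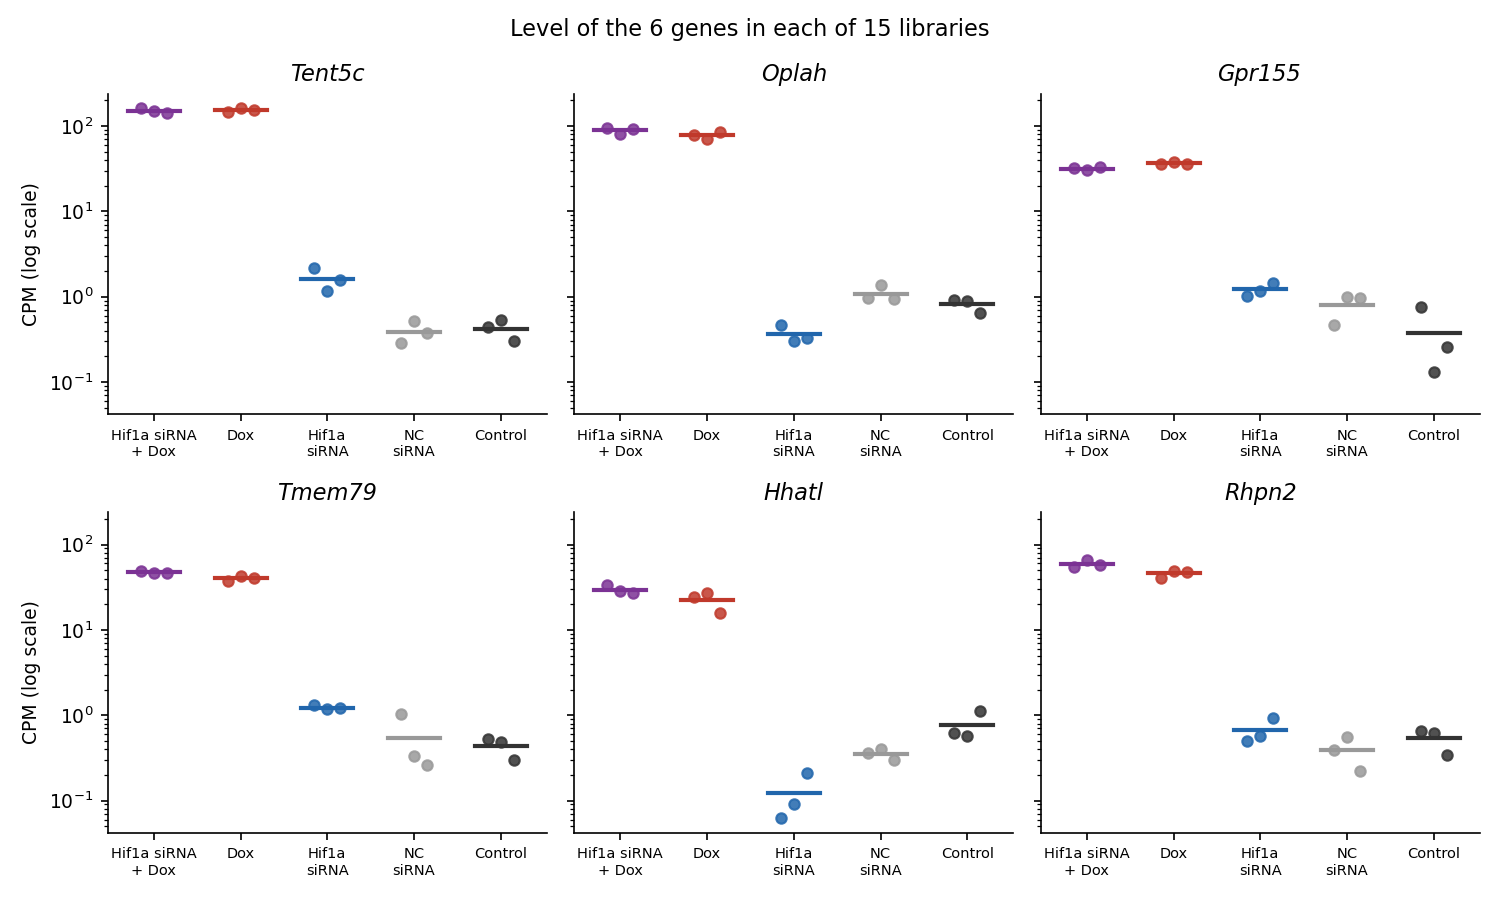
Level of each gene in each of the 15 libraries, in CPM on a log axis, with 1 point per library and a bar at the mean of each group of 3. The Hif1a_siRNA_Dox and Dox libraries lie at 15.6 to 162 CPM for every gene, and no library of Hif1a_siRNA, NC_siRNA or Control exceeds 2.15 CPM.

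Tent5c (gene ID 74645, chr3:100468057-100489192, minus strand, GRCm38, protein-coding) had 162, 151 and 143 CPM in Hif1a_siRNA_Dox and 145, 162 and 155 CPM in Dox. It had 2.15, 1.18 and 1.56 CPM in Hif1a_siRNA, against 0.288, 0.513 and 0.372 CPM in NC_siRNA. In Control it had 0.441, 0.529 and 0.303 CPM. The levels of the 2 drug groups overlapped, as did those of NC_siRNA and Control, while every Hif1a_siRNA library lay between these pairs. Tent5c had the largest log2 fold change of all 12721 genes in Dox against Control, 8.49 ± 0.17 (SE), or 360-fold. The ratio of summed reads was 364 with a 95% counting interval of 254 to 544, since Control held 29 Tent5c reads in all. In Hif1a_siRNA_Dox against Hif1a_siRNA the log2 fold change was 6.54 ± 0.13 (SE), which ranked 12 among all genes.

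The Hif1a siRNA alone gives the contrast least bound to the choice of members, and it was tested for all members but Hhatl. Its libraries are not wholly apart from that choice, since Hif1a_siRNA is also what Hif1a_siRNA_Dox is set against. Hhatl ranked 79 in Dox against Control and 5 in Hif1a_siRNA_Dox against Hif1a_siRNA, so its low Hif1a_siRNA libraries bear on its choice and its value is a description. Tent5c rose in Hif1a_siRNA against NC_siRNA by a log2 fold change of 2.04 ± 0.26 (SE, n = 3 each, adjusted p = 3.27e-07, edgeR's quasi-likelihood test with Benjamini-Hochberg adjustment), higher in 3 of 3 libraries. Of the 5 members tested 2 passed as higher and 1 as lower, where 67.7% of all tested genes were called, 36.4% higher and 31.2% lower. The median log2 fold change of all 6 members was 0.68, beside 0.06 over all genes.

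Oplah (gene ID 75475, chr15:76296603-76331181, minus strand) had 95.7, 80.9 and 91.6 CPM in Hif1a_siRNA_Dox and 78.8, 69.9 and 86.2 CPM in Dox. It had 0.466, 0.302 and 0.331 CPM in Hif1a_siRNA, against 0.971, 1.36 and 0.93 CPM in NC_siRNA. In Control it had 0.926, 0.882 and 0.649 CPM. Oplah was thus lowest where the Hif1a siRNA was given without the drug, and the 2 drug groups overlapped. Its log2 fold change was 7.92 ± 0.16 (SE) in Hif1a_siRNA_Dox against Hif1a_siRNA, rank 3 of all genes, and 6.57 ± 0.15 (SE) in Dox against Control, rank 4. Without the drug it fell in Hif1a_siRNA against NC_siRNA by 1.56 on the log2 scale (SE 0.27, adjusted p = 2.15e-05, edgeR's quasi-likelihood test with Benjamini-Hochberg adjustment), lower in 3 of 3 libraries. In the GENCODE annotation exons of Oplah overlap those of Smpd5 and Exosc4 on the other strand. The library kit keeps strand, but whether counting used it is not given in the sources used here, so the split of reads between overlapping genes is uncertain. Exosc4, an exosome subunit gene, stood at 11.5 CPM in Hif1a_siRNA_Dox, 11.3 in Dox, 16.3 in Hif1a_siRNA, 10.4 in NC_siRNA and 10.9 in Control, all means, and so did not share Oplah's pattern.

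Gpr155 (gene ID 68526, chr2:73341506-73386521, minus strand) had 32.0, 30.2 and 33.0 CPM in Hif1a_siRNA_Dox and 36.2, 37.9 and 35.6 CPM in Dox. It had 1.03, 1.18 and 1.44 CPM in Hif1a_siRNA, against 0.468, 0.989 and 0.967 CPM in NC_siRNA. In Control it had 0.75, 0.132 and 0.26 CPM, from 17, 3 and 6 reads. Gpr155 was the only member whose Hif1a_siRNA_Dox libraries all lay below the Dox libraries, and its NC_siRNA and Control levels overlapped. The log2 fold change was 4.70 ± 0.20 (SE) in Hif1a_siRNA_Dox against Hif1a_siRNA and 6.57 ± 0.25 (SE) in Dox against Control. Without Control replicate 1, the highest Control library, Dox against Control gave 7.51. In Hif1a_siRNA against NC_siRNA the log2 fold change of 0.59 ± 0.29 (SE) missed the threshold (adjusted p = 0.0727, edgeR's quasi-likelihood test with Benjamini-Hochberg adjustment), with no overlap between the groups. Exons of Gpr155 overlap, in GENCODE, the antisense genes Gm13703 and Gm13709. The siRNA call passed with DESeq2 (adjusted p = 0.0388), without Control replicate 1 (edgeR adjusted p = 0.0298) and without Control replicate 2 (edgeR adjusted p = 0.0487).

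Tmem79 (gene ID 71913, chr3:88328653-88334433, minus strand) had 49.0, 46.5 and 47.0 CPM in Hif1a_siRNA_Dox and 37.4, 43.1 and 40.5 CPM in Dox. It had 1.31, 1.18 and 1.20 CPM in Hif1a_siRNA, against 1.04, 0.33 and 0.26 CPM in NC_siRNA. In Control it had 0.529, 0.485 and 0.303 CPM. One NC_siRNA library, replicate 1, stood apart from the other two and close to the Hif1a_siRNA libraries. Tmem79 rose in Hif1a_siRNA against NC_siRNA by a log2 fold change of 1.16 ± 0.30 (SE, adjusted p = 0.00175, edgeR's quasi-likelihood test with Benjamini-Hochberg adjustment), higher in 3 of 3 libraries, and by 2.04 without NC_siRNA replicate 1. The drug's log2 fold change was 5.27 ± 0.19 (SE) in Hif1a_siRNA_Dox against Hif1a_siRNA and 6.51 ± 0.23 (SE) in Dox against Control, rank 6 of all genes. In GENCODE an exon of Tmem79 overlaps Glmp on the other strand, which RefSeq places 21 bases away. Glmp, a lysosomal membrane protein gene, averaged 450 CPM in Hif1a_siRNA_Dox, 498 in Dox, 168 in Hif1a_siRNA, 231 in NC_siRNA and 279 in Control.

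Hhatl (gene ID 74770, chr9:121784016-121792507, minus strand) had 33.3, 28.7 and 26.7 CPM in Hif1a_siRNA_Dox and 24.3, 27.4 and 15.6 CPM in Dox. It had 0.0622, 0.0907 and 0.21 CPM in Hif1a_siRNA, from 2, 3 and 7 reads, against 0.36, 0.403 and 0.298 CPM in NC_siRNA. In Control it had 0.618, 0.573 and 1.13 CPM. The 3 groups without the drug did not overlap one another, with Control highest and Hif1a_siRNA lowest. Among the members Hhatl had the smallest log2 fold change in Dox against Control, 4.85 ± 0.25 (SE), rank 79, while in Hif1a_siRNA_Dox against Hif1a_siRNA it reached 7.87 ± 0.31 (SE), rank 5. That value rests on 12 reads in Hif1a_siRNA: the ratio of summed reads was 243 with a 95% counting interval of 139 to 472, and without Hif1a_siRNA replicate 3 the log2 fold change was 8.45. In Hif1a_siRNA against NC_siRNA the log2 fold change of Hhatl was -1.50 ± 0.57 (SE), a value with no test, and between -2.15 and -1.21 with single libraries left out. The gene was listed for Hif1a_siRNA through its Control libraries alone, since the tables keep a gene that reached 10 reads in 3 of 6 libraries, those of Control and of the group together.

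Rhpn2 (gene ID 52428, chr7:35334180-35392287, plus strand) had 54.0, 66.2 and 57.9 CPM in Hif1a_siRNA_Dox and 40.3, 49.5 and 48.3 CPM in Dox. It had 0.497, 0.574 and 0.932 CPM in Hif1a_siRNA, against 0.396, 0.55 and 0.223 CPM in NC_siRNA. In Control it had 0.662, 0.617 and 0.346 CPM. Every Hif1a_siRNA_Dox library lay above every Dox library, and the groups without the drug overlapped. Rhpn2 was the member whose drug effect was most alike with and without the siRNA, a log2 fold change of 6.46 ± 0.19 (SE) in Hif1a_siRNA_Dox against Hif1a_siRNA and 6.40 ± 0.20 (SE) in Dox against Control. In Hif1a_siRNA against NC_siRNA its log2 fold change of 0.77 ± 0.34 (SE) missed the threshold (adjusted p = 0.0508, edgeR's quasi-likelihood test with Benjamini-Hochberg adjustment). It passed with DESeq2 (adjusted p = 0.042), and in edgeR without Hif1a_siRNA_Dox replicate 2 (0.0497), Dox replicate 1 (0.0461), Hif1a_siRNA replicate 1 (0.0271), Hif1a_siRNA replicate 2 (0.0484), NC_siRNA replicate 2 (0.0222) or Control replicate 3 (0.0458). Exons of Rhpn2 overlap those of Faap24, a Fanconi anemia core complex gene on the other strand that averaged 20.4 CPM in Hif1a_siRNA_Dox, 14.6 in Dox, 9.45 in Hif1a_siRNA, 2.20 in NC_siRNA and 3.14 in Control.

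Divided by exon length in kb (GENCODE exons, GRCm38), mean levels could be set beside each other across genes. In Hif1a_siRNA_Dox they were 24.9 CPM per kb for Tent5c, 16.3 for Tmem79, 15.3 for Oplah, 11.3 for Hhatl, 9.41 for Rhpn2 and 4.75 for Gpr155. In Dox they were 25.3 CPM per kb for Tent5c, 13.9 for Tmem79, 13.4 for Oplah, 8.54 for Hhatl, 7.31 for Rhpn2 and 5.47 for Gpr155. The order of these means was the same in both drug groups, with Tent5c highest and Gpr155 lowest. In Dox, Tmem79 and Oplah (SD 0.98 and 1.40) differed by less than the larger SD. The same held for Hhatl and Rhpn2 (SD 2.34 and 0.79), so their order is uncertain. The exon lengths used in counting are not given and may differ from these.

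Levels under the drug lay within a log2 fold change of 0.40 of each other with and without the Hif1a siRNA. The libraries of Hif1a_siRNA_Dox and Dox overlapped for Tent5c, Oplah and Hhatl. They did not overlap for Gpr155, lower in Hif1a_siRNA_Dox, or for Tmem79 and Rhpn2, higher in it. The log2 fold change of Hif1a_siRNA_Dox against Dox was -0.02 ± 0.09 for Tent5c, 0.19 ± 0.10 for Oplah, -0.21 ± 0.15 for Gpr155, 0.23 ± 0.14 for Tmem79, 0.40 ± 0.17 for Hhatl and 0.37 ± 0.12 for Rhpn2 (SE). The drug's fold changes with and without the siRNA were further apart than these levels for Tent5c, Oplah, Gpr155, Tmem79 and Hhatl. The difference of the doxorubicin effects, that of Hif1a_siRNA_Dox against Hif1a_siRNA minus that of Dox against Control, was -1.95 ± 0.29 for Tent5c, 1.34 ± 0.31 for Oplah, -1.87 ± 0.39 for Gpr155, -1.24 ± 0.36 for Tmem79, 3.02 ± 0.52 for Hhatl and 0.06 ± 0.38 for Rhpn2 (log2, SE). It was above 0 for Oplah and Hhatl and below 0 for Tent5c, Gpr155 and Tmem79. For Rhpn2 it took either sign, between -0.12 and 0.36, when single libraries were left out. Of all genes 58.6% were called for this difference, 26.3% higher and 32.3% lower, and it was not tested for the members. Without Control replicate 1 the Gpr155 difference was -2.81, and without Hif1a_siRNA replicate 3 the Hhatl difference was 3.64. In this difference transfected cells are set against untransfected ones, so Hif1a siRNA and lipoplex cannot be told apart.

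The negative control siRNA set against untreated cells gives the background of transfection. The log2 fold change of NC_siRNA against Control was 1.08 ± 0.39 for Gpr155, 0.41 ± 0.25 for Oplah, 0.32 ± 0.40 for Tmem79, -0.12 ± 0.38 for Tent5c, -0.47 ± 0.39 for Rhpn2 and -1.12 ± 0.42 for Hhatl (SE). These are values with no test. For Gpr155 the value of 1.08 stood beside 0.59 for Hif1a_siRNA against NC_siRNA, for Hhatl -1.12 beside -1.50, and for Tent5c -0.12 beside 2.04.

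**Figure D2:**
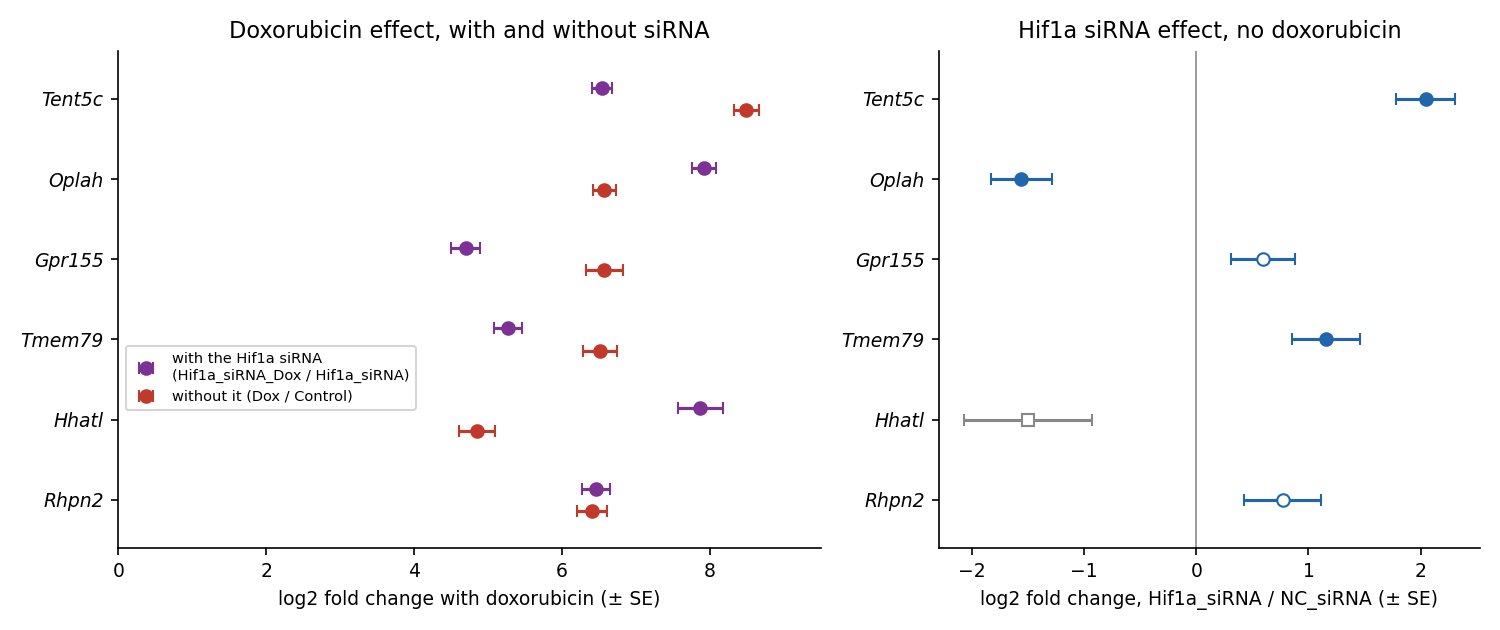
Left, log2 fold change with doxorubicin (± SE) for each gene, in Hif1a_siRNA_Dox against Hif1a_siRNA above and in Dox against Control below it. Right, log2 fold change of Hif1a_siRNA against NC_siRNA (± SE), filled where the adjusted p was under 0.05, with a grey square for Hhatl, which was not tested; the siRNA's values lie between -1.56 and 2.04, and the drug's between 4.70 and 8.49.

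Among themselves the members fell into different patterns over the libraries. Likeness was the root mean square difference of log2 CPM over the 15 libraries, each gene centred on its own mean, so a smaller value is closer. Tmem79 and Rhpn2 were the closest pair at 0.59, and Tent5c and Hhatl the farthest apart at 1.62. Oplah and Hhatl, both lowest in Hif1a_siRNA, stood at 0.74. Oplah was about as close to Rhpn2, which was not lowest there, at 0.75. The difference with the drug, which the members share by choice, enters all these values.

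The genes most like each member over the 15 libraries shared the drug increase, which their choice by likeness over these same libraries largely fixes. For Tent5c they were Cyp26b1, a retinoic acid hydroxylase gene (0.74), Rhpn2 (0.85) and Vdr, the vitamin D receptor gene (0.94). Cyp26b1 averaged 196 CPM in Hif1a_siRNA_Dox, 130 in Dox, 1.90 in Hif1a_siRNA, 1.35 in NC_siRNA and 0.672 in Control. For Oplah they were Epop, which encodes a Polycomb- and elongin-binding protein (0.52), Actn3, which encodes a muscle alpha-actinin (0.54), and Dgat2, a triglyceride synthesis enzyme gene (0.55).

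For Gpr155 the nearest were Hbegf, an EGF receptor ligand gene (0.51), Zfp791 (0.53) and Gata2, a transcription factor gene (0.55). Gata2 (0.51) and Hbegf (0.53) were also nearest to Tmem79, with Mmp17, a membrane-bound matrix metalloprotease gene (0.55). Hbegf averaged 77.0 CPM in Hif1a_siRNA_Dox, 94.4 in Dox, 3.47 in Hif1a_siRNA, 1.05 in NC_siRNA and 1.05 in Control. For Hhatl they were Epop (0.50), Icam5, an adhesion molecule gene (0.51), and Mdga1, which encodes a neuroligin-binding surface protein (0.51). For Rhpn2 they were Vdr (0.52), Tmem79 (0.59) and Mmp17 (0.62). Epop, near both Oplah and Hhatl, averaged 121 CPM in Hif1a_siRNA_Dox, 106 in Dox, 1.02 in Hif1a_siRNA, 1.92 in NC_siRNA and 2.74 in Control.

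Some members are known from plasma cells, muscle or epidermis, so markers of other cell types were set beside them. Of 7 immune markers 2 were listed, the B-cell receptor component gene Cd79a and the plasma cell and epithelial syndecan gene Sdc1, while Ptprc, Cd3e, Jchain, Itgam and Adgre1 had no row in the tables used here. Cd79a averaged 26.9 CPM in Hif1a_siRNA_Dox, 24.1 in Dox, 0.425 in Hif1a_siRNA, 0.647 in NC_siRNA and 0.965 in Control. Sdc1 averaged 273 CPM in Hif1a_siRNA_Dox, 281 in Dox, 46.7 in Hif1a_siRNA, 34.5 in NC_siRNA and 21.5 in Control. The pair summed to 285 to 317 CPM in Hif1a_siRNA_Dox and 291 to 322 in Dox, against 46.5 to 47.8 in Hif1a_siRNA, 32.8 to 36.3 in NC_siRNA and 21.5 to 23.1 in Control. These sums were high where Tent5c was high, and their part in its values was not tested.

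Of 4 fibroblast markers Pdgfra and Col1a1 were listed, and their sum was also higher with the drug, 61.8 to 85.8 CPM in Hif1a_siRNA_Dox and 37.2 to 60.7 in Dox, against 3.93 to 5.01 in Hif1a_siRNA, 2.49 to 3.08 in NC_siRNA and 6.22 to 6.62 in Control. None of the 6 striated muscle markers (Myh6, Myh7, Actc1, Ckm, Acta1, Ryr1), the 4 keratinocyte markers (Krt5, Krt14, Krt1, Krt10) or the 3 endothelial markers (Pecam1, Cdh5, Kdr) had a row in the tables used here, beside Hhatl at 26.7 to 33.3 CPM and Tmem79 at 46.5 to 49.0 CPM in Hif1a_siRNA_Dox. The muscle gene Actn3, named above for its likeness to Oplah, is outside these lists. It averaged 33.4 CPM in Hif1a_siRNA_Dox and 34.0 in Dox, against 0.285 in Hif1a_siRNA, 0.647 in NC_siRNA and 0.686 in Control.

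The genes next to the members on the chromosome had smaller log2 fold changes than the members beside them in both drug comparisons. The members were chosen for large changes in these comparisons, which largely fixes that order. Of the 12 nearest tested genes, 1 on each side, 6 passed as higher and 5 as lower in Hif1a_siRNA_Dox against Hif1a_siRNA (median log2 fold change 0.21), and 7 as higher and 2 as lower in Dox against Control (median 0.36). Over all tested genes 42.6% were called higher and 41.6% lower in the first comparison, and 43.9% and 39.8% in the second. Zbtb47, a zinc finger gene 12273 bases from Hhatl, had the largest change of the 12. It averaged 40.3 CPM in Hif1a_siRNA_Dox, 25.5 in Dox, 2.82 in Hif1a_siRNA, 6.10 in NC_siRNA and 1.58 in Control. Its log2 fold change was 3.83 ± 0.14 (SE) in Hif1a_siRNA_Dox against Hif1a_siRNA (adjusted p = 1.28e-17, edgeR's quasi-likelihood test with Benjamini-Hochberg adjustment) and 4.01 ± 0.15 (SE) in Dox against Control (adjusted p = 4.65e-17, same test). Faap24, which overlaps Rhpn2, rose by a log2 fold change of 1.11 ± 0.19 (SE) in Hif1a_siRNA_Dox against Hif1a_siRNA (edgeR adjusted p = 1.51e-05) and 2.22 ± 0.22 (SE) in Dox against Control (edgeR adjusted p = 4.06e-09). Scrn3 beside Gpr155 had log2 fold changes of -1.07 and -1.21 and Gdap2 beside Tent5c of -0.95 and -1.11 in the same comparisons, and both fell in each.

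**Figure D3:**
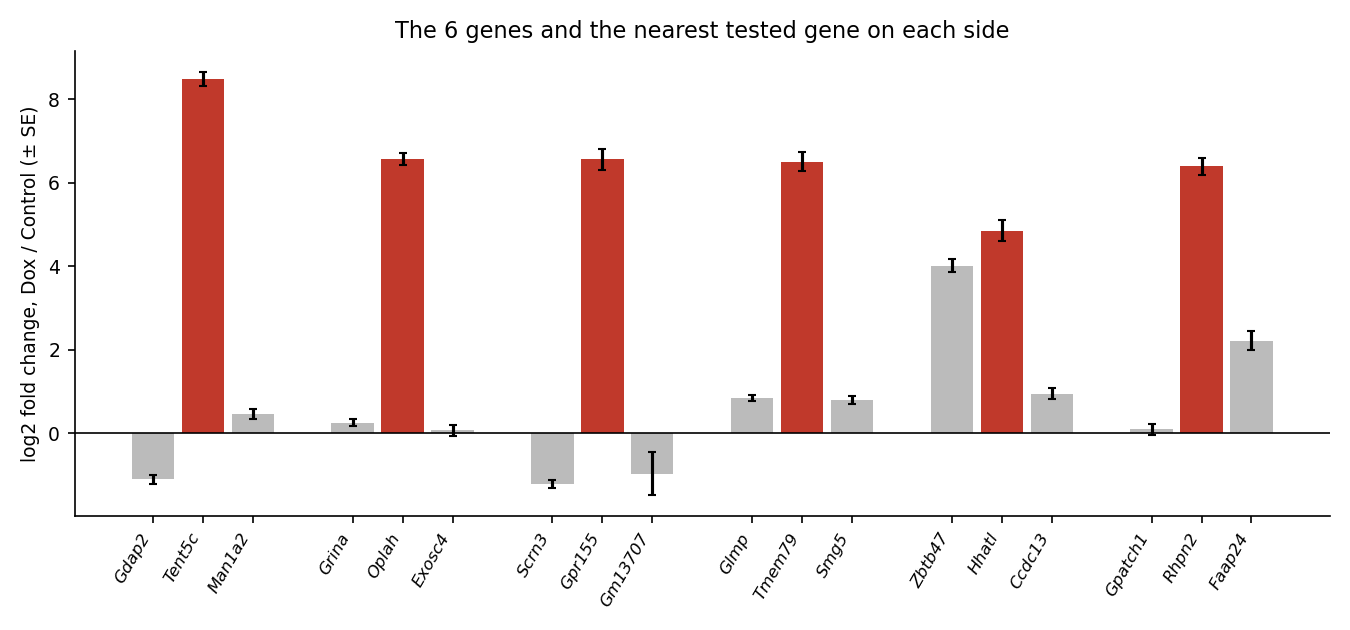
Log2 fold change in Dox against Control (± SE) for each of the 6 genes (red) and the nearest tested gene on its left and right along the chromosome (grey). The members stand at 4.85 to 8.49, and the flanking genes at -1.21 to 4.01, with Zbtb47 beside Hhatl the highest of them. The choice of members for large changes largely fixes that they stand higher.

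Genes of the same family or pathway were counted for Tent5c, Oplah, Gpr155, Tmem79 and Hhatl. Tent5c belongs to the terminal nucleotidyltransferases, of which, with the poly(A) polymerases, 11 of 13 were tested. In Hif1a_siRNA_Dox against Hif1a_siRNA 3 rose and 7 fell (median log2 fold change -0.78), and in Dox against Control 4 rose and 5 fell (median 0.01, and -0.06 with RLE scaling). Genes said to have risen or fallen here passed edgeR's quasi-likelihood test at an adjusted p under 0.05. Beside these counts and those of the lists below, 42.6% of all tested genes rose and 41.6% fell in Hif1a_siRNA_Dox against Hif1a_siRNA. In Dox against Control 43.9% rose and 39.8% fell. Papola, the main nuclear poly(A) polymerase gene, averaged 46.0 ± 1.92 CPM in Hif1a_siRNA_Dox and 39.8 ± 3.62 in Dox, against 446 ± 9.74 in Hif1a_siRNA, 551 ± 17.6 in NC_siRNA and 500.4 ± 13.5 in Control (SD, n = 3 each). Its log2 fold changes with the drug were -3.28 ± 0.07 with the siRNA and -3.65 ± 0.07 without it (SE, edgeR adjusted p = 2.24e-21 and 4.66e-22). Mtpap, the mitochondrial poly(A) polymerase gene, had log2 fold changes of -3.01 and -2.71, and Tut4, a uridylyltransferase gene, of -2.79 and -2.50, with and without the siRNA.

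The closest relatives of Tent5c were named after their values were seen. Tent5a rose by a log2 fold change of 3.54 ± 0.12 with the siRNA and 3.24 ± 0.13 without it (SE, edgeR adjusted p = 6.28e-18 and 4.86e-17). Tent5b rose by 2.58 ± 0.22 with the siRNA and 3.48 ± 0.27 without it (SE, edgeR adjusted p = 1.81e-10 and 1.62e-11). Tent5a averaged 82.9 CPM in Hif1a_siRNA_Dox, 63.0 in Dox, 7.11 in Hif1a_siRNA, 10.9 in NC_siRNA and 6.67 in Control.

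Of 16 genes of the gamma-glutamyl cycle and glutathione synthesis, to which Oplah belongs, 11 were tested. In Hif1a_siRNA_Dox against Hif1a_siRNA 4 rose and 5 fell (median log2 fold change -0.03), and in Dox against Control 4 rose and 5 fell (median -0.15). With upper-quartile scaling the balance flipped or evened out, to 5 that rose and 5 that fell with the siRNA and to 5 and 4 without it. Chac1, a glutathione-degrading enzyme gene, had log2 fold changes of -2.96 with the siRNA and -2.17 without it. Gss, the glutathione synthetase gene, rose by 1.18 ± 0.08 with the siRNA and 1.34 ± 0.09 without it, and Ggt7, a gamma-glutamyltransferase family gene, by 1.92 ± 0.09 and 1.18 ± 0.08 (log2, SE). Gss averaged 64.5 CPM in Hif1a_siRNA_Dox and 56.5 in Dox, against 28.4 in Hif1a_siRNA, 14.5 in NC_siRNA and 22.2 in Control.

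Of 20 genes of lysosomal cholesterol and amino acid sensing, the setting of Gpr155, 19 were tested. In Hif1a_siRNA_Dox against Hif1a_siRNA 6 rose and 12 fell (median log2 fold change -0.66), and in Dox against Control 5 rose and 12 fell (median -0.59). The 3 with the smallest adjusted p in Dox against Control encode subunits of Ragulator, the complex that anchors the Rag GTPases to the lysosome. Their log2 fold changes with the siRNA were -1.87 for Lamtor1, -1.46 for Lamtor3 and -0.98 for Lamtor5. Without it they were -2.32 for Lamtor1, -2.06 for Lamtor3 and -1.64 for Lamtor5. The other Ragulator subunit genes, Lamtor2 and Lamtor4, were named after their values were seen. Lamtor2 rose by a log2 fold change of 0.80 with the siRNA and 0.44 without it (edgeR adjusted p = 8.3e-09 and 5.65e-05). Lamtor4 rose by 0.20 with the siRNA (edgeR adjusted p = 0.0469) and had a log2 fold change of -0.75 without it, where it fell (edgeR adjusted p = 8.17e-08). Lamtor1 averaged 28.2 CPM in Hif1a_siRNA_Dox and 30.4 in Dox, against 103 in Hif1a_siRNA, 104 in NC_siRNA and 152 in Control.

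Of 6 MAPEG genes, set beside Tmem79, 2 were tested. Mgst1, a microsomal glutathione transferase gene, rose by a log2 fold change of 1.68 ± 0.13 with the siRNA and 1.49 ± 0.13 without it (SE, edgeR adjusted p = 3.92e-11 and 3.39e-10). Mgst3 had log2 fold changes of 0.28 ± 0.18 and -0.13 ± 0.18 (SE) and did not pass (edgeR adjusted p = 0.16 and 0.501), though it passed as higher with the siRNA under upper-quartile scaling.

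Of 10 membrane-bound O-acyltransferase genes, the family of Hhatl, 8 were tested. In Hif1a_siRNA_Dox against Hif1a_siRNA 5 rose and 1 fell (median log2 fold change 0.75), and in Dox against Control 4 rose and 3 fell (median 0.39). Soat1, a cholesterol esterification enzyme gene, had log2 fold changes of -1.52 with the siRNA and -2.05 without it. The phospholipid acyltransferase genes Lpcat3 and Mboat7 rose, by log2 fold changes of 1.62 and 1.51 with the siRNA and 1.59 and 1.55 without it. Porcn and Mboat2, named after their values were seen, rose by 0.90 and 0.60 in Hif1a_siRNA_Dox against Hif1a_siRNA and had log2 fold changes of -2.69 and -1.12 in Dox against Control, where they fell. Both were lower in Hif1a_siRNA than in NC_siRNA, by log2 fold changes of -3.72 ± 0.19 and -2.60 ± 0.11 (SE, edgeR adjusted p = 2.32e-14 and 1.06e-15). Hhat itself had log2 fold changes of -0.27 ± 0.19 and -0.34 ± 0.20 (SE) with the drug, with and without the siRNA, and did not pass.

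Rhpn1, the paralog of Rhpn2 and named after its values were seen, rose by a log2 fold change of 2.74 ± 0.11 with the siRNA and 1.61 ± 0.11 without it (SE, edgeR adjusted p = 2e-16 and 2.1e-12).

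In Hif1a_siRNA against NC_siRNA the same lists moved in both directions. Among the poly(A) polymerases 7 rose and 3 fell, in the gamma-glutamyl cycle 6 rose and 2 fell, in lysosomal sensing 4 rose and 9 fell, and in the MAPEG list 0 passed. In the acyltransferase family 2 rose and 5 fell. The median log2 fold changes in that order were 0.29, 0.49, -0.11, -0.08 and -0.60, beside 0.06 over all genes. Of all tested genes 36.4% rose and 31.2% fell in that comparison.

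**Figure D4:**
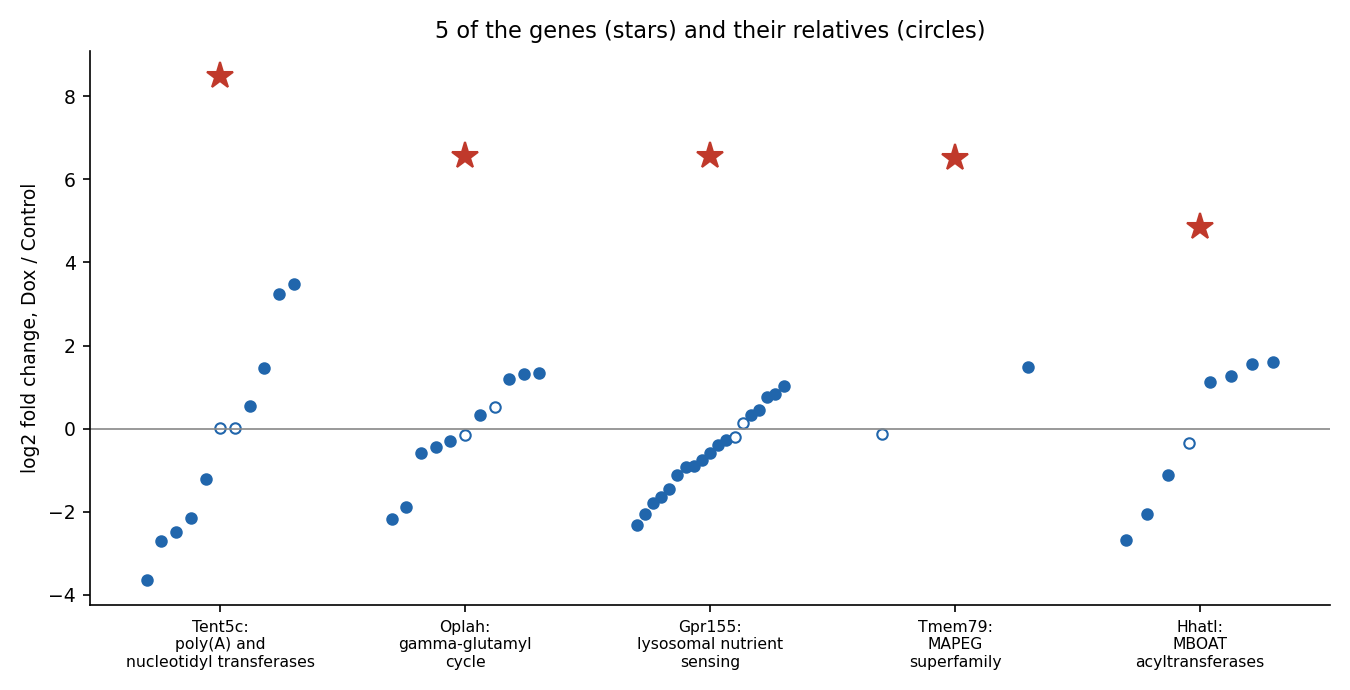
Log2 fold change in Dox against Control for the 51 tested relatives (circles, filled where the edgeR adjusted p was under 0.05), grouped by the member they stand beside (stars). These 5 members stand at 4.85 to 8.49, and the highest relatives, Tent5b and Tent5a, at 3.48 and 3.24. The choice of members largely fixes that they stand higher.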

How the data were processed

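Raw read counts per gene were deposited by the authors for 15 libraries. The submitters' processing notes name the mm10 build and, in no stated roles, HISAT2 2.1.0, StringTie 2.1.3b, Bowtie2 2.3.4.1, FastQC 0.11.7 and Trimmomatic 0.38; per the labels' protocols RNA came from RNeasy kits and libraries from a TruSeq Stranded mRNA kit. The gene annotation, the counter and its use of strand are not given in the sources used here. Blank symbols were filled by gene ID from RefSeq (GRCm38.p6) for 1491 genes and 29 have none. Repeated gene IDs, 22 to 25 per table outside Control, had identical values and were kept once.

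The 12721 genes listed for all 5 groups were fitted together with edgeR 4.0.16 in R 4.3.3 (TMM, group term only, robust quasi-likelihood, 10 residual degrees of freedom, two-sided), and p-values were adjusted by Benjamini-Hochberg over all of them, with a threshold of 0.05. The low-count filter removed 0 genes. SE is the log2 fold change divided by the root of F. The common biological coefficient of variation was 0.0907. The procedure was tested on simulated data. Replicate pairs differed by more than sampling noise (chi-square per degree of freedom 3.56 to 34.6). CPM uses TMM-scaled library sizes. Counting intervals are exact binomial at 95% and cover counting error only.

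Hhatl is given without the test planned for Hif1a_siRNA against NC_siRNA, since those libraries bear on its choice. The members, lists, motifs and rules were chosen with earlier results of these data known. Named genes were the members, Hif1a, the 3 relatives per list with the smallest adjusted p in Dox against Control, the 3 genes most like each member (log2 CPM, prior count 2) outside clone and prediction names, and the flanking genes. Some genes and 1 list of relatives are not reported here. Alternatives were RLE and upper-quartile scaling, DESeq2 1.42.0, limma-voom 3.58.1, a threshold of 0.01, no filter, 1 CPM in 3 libraries, a replicate block, only the compared groups, and each library left out. Figures used matplotlib 3.10.9.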

Additional observations from a re-analysis of the deposited data

Results flagged for a closer look

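Of the 14 named relatives, 9 had a doxorubicin effect that differed with and without the Hif1a siRNA by the test of the difference itself (edgeR's quasi-likelihood test, adjusted p under 0.05), where 58.6% of all genes did. The values are log2 differences, the effect with the siRNA minus that without it. Above 0 were Ggt7 at 0.73, Lamtor5 at 0.66, Lamtor3 at 0.61, Soat1 at 0.53, Lamtor1 at 0.45 and Papola at 0.38. Of these 6 all but Ggt7 fell less with the drug when the siRNA was given, and Ggt7 rose more. Below 0 were Chac1 at -0.79, Mtpap at -0.30 (adjusted p = 0.0465) and Tut4 at -0.28 (adjusted p = 0.0314), whose log2 fold changes with the drug were lower when the siRNA was given. The calls of Mtpap and Tut4 were lost with RLE scaling (-0.22 and -0.20, edgeR adjusted p = 0.135 and 0.128) and with DESeq2 (adjusted p = 0.129 and 0.116), and that of Mtpap also with upper-quartile scaling (edgeR adjusted p = 0.073), while the other 7 kept theirs under these scalings. The difference sets transfected cells against untransfected ones, so Hif1a siRNA and lipoplex cannot be told apart in it. The cause was not tested.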

How the results depend on the processing

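In Hif1a_siRNA against NC_siRNA, Tent5c, Oplah and Tmem79 kept their direction and their call under all 24 alternatives, with values of 1.80 to 2.28, -1.77 to -1.38 and 0.83 to 2.04 on the log2 scale when single libraries were left out. Gpr155 ranged between 0.31 and 0.76 in that way, Hhatl between -2.15 and -1.21 and Rhpn2 between 0.45 and 1.09. Gpr155 passed with DESeq2 (0.55), and without Control replicate 1 or Control replicate 2 (0.59 each). Rhpn2 passed with DESeq2 (0.73). Hhatl, given with no test, stood at -1.50 at a threshold of 0.01 as at 0.05, and had no value in the fit of only the compared groups, whose low-count filter removed it. The Tmem79 value of 1.16 became 2.04 without NC_siRNA replicate 1. Upper-quartile scaling moved the Tmem79 doxorubicin effect with the siRNA to 5.42. It also moved the median log2 fold change of all genes in Hif1a_siRNA_Dox against Hif1a_siRNA to 0.19, against 0.04 with TMM. In Dox against Control that median became 0.22, against 0.10 with TMM. The members' values in these 2 comparisons were 4.70 to 8.49. The cause of these changes was not tested. Each scaling sets a gene against the rest of its library, so a change in total RNA per cell was not tested.

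Replicate numbers did not pair the samples: the 12 same-numbered pairs correlated at -0.16 to 0.06 across genes. With a replicate block Rhpn2 passed in Hif1a_siRNA against NC_siRNA (0.77), and the counts of genes called were 8540 for Hif1a_siRNA against NC_siRNA, 10623 for Dox against Control, 10685 for Hif1a_siRNA_Dox against Hif1a_siRNA and 7373 for the difference, beside 8608, 10654, 10717 and 7455 without it. Counts over all genes tested stayed within 1.5 times under all alternatives run. Of the lists, the poly(A) polymerases had 3 lower calls for the difference with RLE scaling and DESeq2, beside 6 with TMM, and the MAPEG genes 2 higher calls in Hif1a_siRNA_Dox against Hif1a_siRNA with upper-quartile scaling, beside 1. Depth limits the members in cells without the drug, where 2 to 69 reads per library stand behind a value.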
